A study of Mus musculus with 20 samples.

Results

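The genes described here are 9 that are known from the endothelium of glomerular, fenestrated or peritubular capillaries, namely Ehd3, Plvap, Emcn, Car4, Cd36, Gpihbp1, Fabp4, Ly6a and Ly6c1. They were chosen by name, and all 9 of them were found among the 34255 genes of the count table. Transcripts were counted in 4 microvascular compartments that were cut by laser from sections of the kidney cortex, namely arterioles, glomeruli, peritubular capillaries and postcapillary venules, and in whole kidney that was not microdissected. Each of these 5 groups had 4 libraries, all from kidneys of healthy adult male WT mice of the C57BL6/OlaHsd strain. The labels call the 4 libraries of a group biological replicates without naming the mouse behind each, so the p-values measure the spread between these libraries. They are called here by the number in their column names (93, 96, 98 or 100). The authors cut arterioles, glomeruli and venules from the same slide of each mouse and peritubular capillaries from another slide of that mouse. Libraries of different compartments can thus share a mouse, and the main fits hold no term for it. Arterioles, glomeruli and venules were picked by their shape on hematoxylin-stained sections and peritubular capillaries by their binding of isolectin B4, a plant lectin that labels endothelium, so each sample holds every cell inside the cut outline. The microdissected libraries were made with the low-input version of the kit and with more PCR cycles than those of the whole kidney, so microdissection and library preparation cannot be told apart in any comparison with whole kidney.

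The endothelium of the kidney changes from one vessel segment to the next. Arterioles have a continuous lining, glomerular capillaries have open fenestrae through which plasma is filtered, and peritubular capillaries have fenestrae that are closed by thin diaphragms and take up what the tubules reabsorb. The 9 genes belong to that division of labor. EHD3 shapes membranes in glomerular endothelium, PLVAP builds the diaphragms of fenestrae and caveolae, and endomucin (EMCN) is a mucin-like glycoprotein on the surface of capillary and venous endothelium. CAR4 is a carbonic anhydrase anchored to the cell surface, where it interconverts carbon dioxide and bicarbonate. GPIHBP1, CD36 and FABP4 handle fatty acids, the first by holding lipoprotein lipase on the capillary wall, the others by taking fatty acids up and by binding them inside the cell. LY6A, also called Sca-1, and LY6C1 are small lipid-anchored surface proteins used to recognize endothelial subsets.

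In mouse build GRCm38, Ehd3 lies on chromosome 17 (73804134 to 73832094), Emcn on chromosome 3 (137341067 to 137432185) and Car4 on chromosome 11 (84957786 to 84966044), all on the plus strand. On the minus strand lie Plvap on chromosome 8 (71497765 to 71511752), Cd36 on chromosome 5 (17781690 to 17888801) and Fabp4 on chromosome 3 (10204088 to 10208576). The other members share a stretch of chromosome 15, where Ly6a (74994877 to 74998031) and Ly6c1 (75044018 to 75048830) lie on the minus strand and Gpihbp1 (75596628 to 75599481) on the plus strand. All of them are protein coding. Reads of a 3′ method fall near the transcript's end, where the end of Plvap overlaps Gtpbp3 on the opposite strand. No source used here says whether counting took the strand into account. Gtpbp3 itself had 2961 counts over the 20 libraries and Plvap had 17913.

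The libraries held between 4639090 and 12283098 counts. Levels below are in CPM, that is counts scaled to 1000000 per library after TMM scaling, and their error is the SD over 4 libraries. The content of endothelium differed widely between groups. The summed level of 21 pan-endothelial genes, such as Pecam1 and Cdh5, lay between 5146 and 8642 CPM in the arterioles, between 3782 and 4337 CPM in the glomeruli, between 747 and 1501 CPM in the peritubular capillaries, between 1173 and 1712 CPM in the venules and between 536 and 659 CPM in whole kidney. Other cells were present in each compartment. Proximal tubule markers (14 genes, all detected in every group) summed to between 72524 and 135207 CPM in the peritubular capillaries, above the 41028 to 42765 CPM of whole kidney, and to between 27963 and 34963 CPM in the venules. Smooth muscle markers (7 genes) reached 13219 to 34701 CPM in the arterioles and podocyte markers (8 genes) 7552 to 8667 CPM in the glomeruli. In such bulk samples, fewer cells of a type and less RNA per cell cannot be told apart.

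Of the 9 genes, 6 differed among the 4 compartments when the compartments were tested together (edgeR's quasi-likelihood F test, FDR under 0.05), in a table where 11.4% of 12179 tested genes did. These were Ehd3 (FDR 2.94e-06), Cd36 (3.84e-06), Ly6c1 (4.43e-07), Emcn (9.45e-05), Ly6a (0.000154) and Car4 (0.000365). Plvap (FDR 0.115), Gpihbp1 (0.419) and Fabp4 (0.871) were not called. The means of the 9 genes fell into different orders. Ehd3 and Emcn were highest in the glomeruli, Plvap in the venules, Car4, Cd36, Gpihbp1 and Ly6a in the peritubular capillaries, Ly6c1 in the arterioles and Fabp4 in whole kidney.

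**Figure D1:**
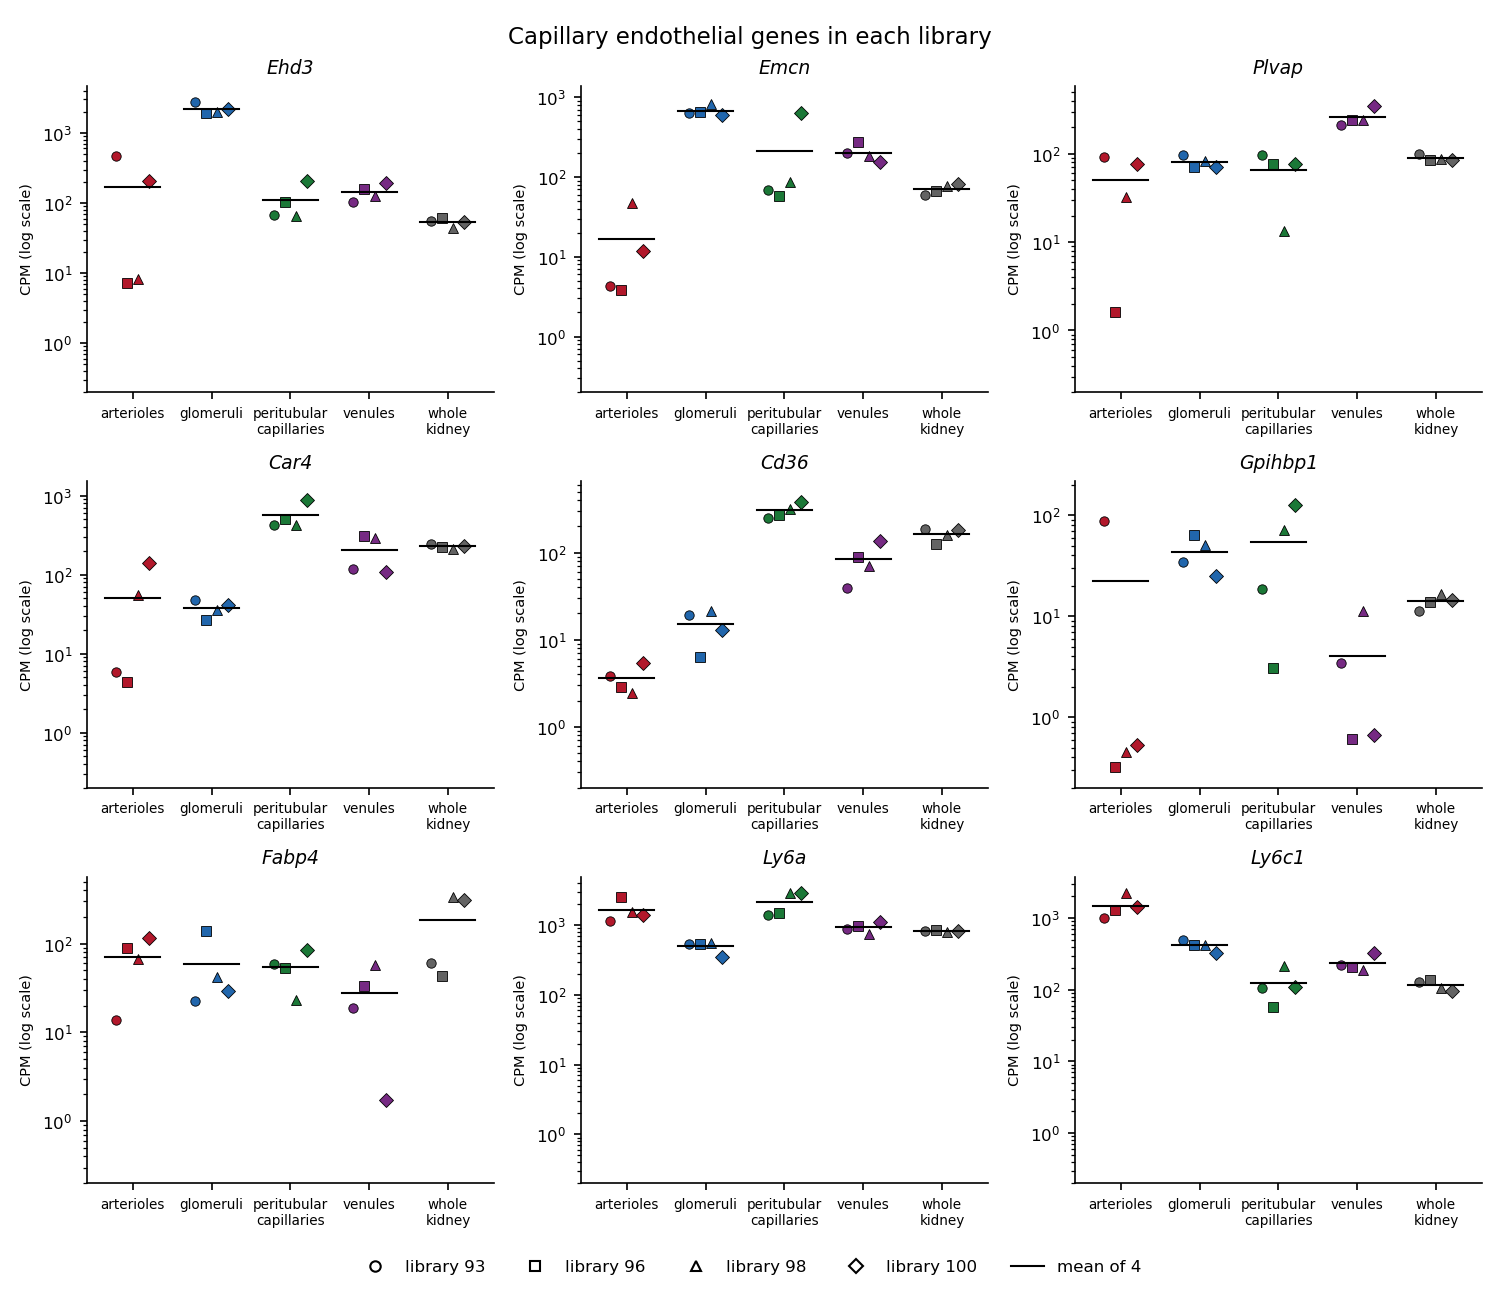
Levels of the 9 genes in CPM (vertical axis, log scale) in the 5 groups, with a point for each of the 4 libraries, shaped by library number, and a bar at their mean. Ehd3 in the glomeruli (1908 to 2743 CPM) stands above all other libraries, Cd36 in the arterioles (2.47 to 5.35 CPM) below all others, and Emcn in the peritubular capillaries and Gpihbp1 in the arterioles are each carried by a single high library.

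Ehd3 belongs to a family of ATPases that bend and tubulate membranes, and it marks glomerular endothelium. In the glomeruli it stood at 2743, 1908, 2014 and 2216 CPM in libraries 93, 96, 98 and 100. In whole kidney it stood at 56.2, 60.8, 43.7 and 54.3 CPM. Every glomerular library was far above every library of the other groups. The mean of 2220.3 ± 371 CPM (SD, n = 4) was 41.3 times that of whole kidney (53.7 ± 7.26), a log2 difference of 5.37 (SE 0.78, edgeR FDR 1.69e-05). The glomeruli were also above the arterioles (log2 of arterioles minus glomeruli -3.69, SE 0.74, FDR 0.00207), the peritubular capillaries (4.33, SE 0.76, FDR 0.000217) and the venules (3.93, SE 0.75, FDR 0.00223). In the venules Ehd3 was at 103, 159.9, 127 and 194 CPM, and in the peritubular capillaries at 66.4, 104, 65.3 and 207 CPM. These groups overlapped and did not differ beyond their spread (log2 of peritubular capillaries minus venules -0.40, SE 0.67, edgeR FDR 0.967). The arterioles were split, with 462, 7.24, 8.21 and 207 CPM, so that libraries 93 and 100 stood above all of whole kidney and libraries 96 and 98 below it (log2 1.67, SE 0.66, edgeR FDR 0.0804). Without arteriole library 96 this difference passed (2.07, FDR 0.0193), as it did without library 98 (2.06, FDR 0.0229). The lower level in arterioles than in glomeruli moved to -4.88 (FDR 0.00014) without arteriole library 93. Podocyte markers in the arteriole libraries summed to 1095, 1761, 1539.8 and 1286 CPM, mostly from Podxl (mean 985 CPM) and Synpo (421 CPM), which cells other than podocytes also express. Of the 8 markers, 2 were called higher and 2 lower in arterioles than in whole kidney (5.78% and 5.5% of all genes), with a median of -2.82 beside 0.22, and their part in the level of Ehd3 was not tested.

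Other genes of curved membranes were compared as a list. A list of 10 EHD and caveolar genes had 4 members higher in glomeruli than in whole kidney and 4 higher in arterioles than in whole kidney, with none lower in either (1.59% and 5.78% of all genes were higher in these comparisons), and its median log2 difference was 1.32 and 2.72 beside 0.25 and 0.22 over all genes tested. The 4 were Ehd4, Ehd2, Cavin1 and Cavin3 in both comparisons. Ehd4, the nearest relative of Ehd3 in name, reached 921 CPM in the arterioles, 316 CPM in the glomeruli, 279 CPM in the venules, 103 CPM in the peritubular capillaries and 69.9 CPM in whole kidney. Cavin1, which coats caveolae, was at 1080 CPM in the arterioles and 277 CPM in the glomeruli against 54.3 CPM in whole kidney. In the venules Ehd4 was the 1 member above whole kidney (log2 2.00, SE 0.41, edgeR FDR 0.0121), and in the peritubular capillaries there was none (0.203% and 0.0869% of all genes were higher). The 4 that were higher in arterioles than in whole kidney thus include Ehd4, whose order differed from that of Ehd3. Kdr, the receptor for VEGF-A, was picked from a list of 6 glomerular endothelial genes after its values were seen. Its highest mean was where that of Ehd3 was, with 1261 CPM in the glomeruli against 58.5 CPM in the arterioles (log2 of arterioles minus glomeruli -4.43, SE 0.78, edgeR FDR 0.000391). Ehd4 is on the same list and was higher in the arterioles. The list summed to between 1734 and 2131 CPM in the glomeruli and between 716 and 1359 CPM in the arterioles, and its other genes are not given 1 by 1.

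Emcn, the gene of endomucin, was high in the glomeruli, with 626, 659, 812 and 601 CPM in libraries 93, 96, 98 and 100. It was low in the arterioles, with 4.26, 3.86, 46.8 and 11.8 CPM. The 2 groups did not overlap, and the arterioles were lower by a factor of 40.5 between means (log2 -5.33, SE 0.83, edgeR FDR 6.67e-05). In the venules Emcn stood at 198, 274, 181 and 153 CPM and in whole kidney at 60.0, 66.9, 75.9 and 81.7 CPM. The peritubular capillaries gave 69.5, 57.4, 87.3 and 626 CPM, so that library 100 lay within the range of the glomeruli and the other 3 within or near that of whole kidney. The arterioles were also lower than the peritubular capillaries (log2 -3.65, SE 0.77, edgeR FDR 0.00119), the venules (-3.59, SE 0.76, FDR 0.0032) and whole kidney (-2.09, SE 0.68, FDR 0.0404). The last call was lost without any 1 of the whole kidney libraries or arteriole library 93, 96 or 100 (FDR up to 0.0923). Without peritubular capillary library 100 the difference from the peritubular capillaries was -2.07 (FDR 0.0456). Without arteriole library 98, the highest of its group, the 4 differences of arterioles grew to -6.66 from glomeruli, -4.99 from peritubular capillaries, -4.92 from venules and -3.42 from whole kidney. The glomeruli were above whole kidney (3.24, SE 0.71, FDR 0.00482). Their difference from the peritubular capillaries was 1.68 (SE 0.71, edgeR FDR 0.176), and it was 3.23 with an FDR of 0.00706 without peritubular capillary library 100. In that library the pan-endothelial genes were also at their highest of the 4 (1501 CPM), Ehd3 was at 207 CPM and Kdr at 427 CPM, and podocyte markers summed to 298 CPM against 176 to 222 CPM in the other 3, and their part in the result was not tested.

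Of 9 sialomucins, the class to which endomucin belongs, 6 passed the filter on low counts in the fit with whole kidney. In that fit Podxl, which makes podocalyxin of podocytes and endothelium, was the called member in glomeruli (3557 against 87.8 CPM, log2 5.34, SE 0.38, edgeR FDR 1.41e-12), in arterioles (985 CPM, log2 3.49, FDR 3.53e-09) and in venules (243 CPM, log2 1.47, FDR 0.029). Over all genes, 1.59%, 5.78% and 0.203% were called higher in these comparisons. Unlike Emcn, Podxl was thus higher in arterioles than in whole kidney. Podxl is also one of the podocyte markers.

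Ehd3 and Emcn, which were both higher in glomeruli than in whole kidney, and Car4 and Cd36, which were both lower there, have promoter entries in RefSeq for the build GRCm38.p6. The stretches below run from 250 bases before to 50 bases after the annotated start, which can differ from the Ensembl start of the gene. Those of Ehd3 and Cd36 lie inside the Ensembl genes, which start at 73804134 (plus strand) and at 17888801 (minus strand). The Cd36 window is thus an internal start, far from the Ensembl start. They are shown because the genes of each pair had the same direction in that comparison. In arterioles against whole kidney Ehd3 and Emcn went opposite ways (log2 1.67, not called, and -2.09). Ly6c1 was also called higher in glomeruli and has entries that are not printed. Capitals mark the letters AGGAAG on either strand, a form of the site bound by ETS factors, a family active in endothelium.
Ehd3 (chr17:73804591-73804890, plus strand): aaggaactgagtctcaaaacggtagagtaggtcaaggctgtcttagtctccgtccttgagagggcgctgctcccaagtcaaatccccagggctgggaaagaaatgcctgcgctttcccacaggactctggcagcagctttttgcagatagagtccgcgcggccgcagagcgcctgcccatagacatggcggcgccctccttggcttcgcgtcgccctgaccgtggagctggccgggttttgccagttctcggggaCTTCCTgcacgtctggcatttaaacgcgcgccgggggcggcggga
Emcn (chr3:137340828-137341127, plus strand): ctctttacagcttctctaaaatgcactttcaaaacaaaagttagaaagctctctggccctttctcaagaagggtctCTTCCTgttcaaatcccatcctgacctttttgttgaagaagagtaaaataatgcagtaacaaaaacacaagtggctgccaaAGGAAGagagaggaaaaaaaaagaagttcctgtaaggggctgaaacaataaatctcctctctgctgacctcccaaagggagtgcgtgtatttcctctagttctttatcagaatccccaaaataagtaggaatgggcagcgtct
Car4 (chr11:84957504-84957803, plus strand): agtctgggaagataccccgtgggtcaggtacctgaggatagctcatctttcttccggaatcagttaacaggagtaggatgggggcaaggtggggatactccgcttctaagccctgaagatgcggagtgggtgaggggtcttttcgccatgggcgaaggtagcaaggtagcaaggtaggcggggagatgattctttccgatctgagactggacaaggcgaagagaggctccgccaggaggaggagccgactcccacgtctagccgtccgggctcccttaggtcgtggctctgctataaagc
Cd36 (chr5:17835847-17836146, minus strand): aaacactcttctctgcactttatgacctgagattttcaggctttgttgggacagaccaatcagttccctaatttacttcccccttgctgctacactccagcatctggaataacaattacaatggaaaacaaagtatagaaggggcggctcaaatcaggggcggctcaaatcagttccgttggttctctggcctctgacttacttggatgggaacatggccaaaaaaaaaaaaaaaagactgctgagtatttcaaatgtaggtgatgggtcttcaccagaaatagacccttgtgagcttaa
The Ehd3 window held the letters once, starting 5 bases after the start site on the opposite strand. The Emcn window held them at -174 on the opposite strand and at -93 on the gene's own strand. The windows of Car4 and Cd36 held none of these letters, and a window of Ly6c1 not printed here held them at -126, -38 and -34. Other forms of the ETS site were not searched, so a window without these letters may still hold a site. Over all 32851 promoters of the table, 35.4% held AGGAAG, so its presence in a window is common. The letters TGTTTAC (a form of the forkhead site) and AGATAA (a form of the GATA site) were searched on both strands. So were the repeat bound by PPAR with RXR and the HNF1 palindrome. None was found in these 4 windows, beside 3.65%, 11.2%, 0.0396% and 0.00913% of all promoters.

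Plvap, the diaphragm protein, was highest in the venules, with 213, 239, 239 and 344 CPM in libraries 93, 96, 98 and 100. Whole kidney gave 100.2, 85.6, 88.0 and 84.6 CPM and the glomeruli 96.8, 70.6, 83.8 and 70.6 CPM. The peritubular capillaries gave 95.7, 76.7, 13.5 and 76.9 CPM and the arterioles 92.5, 1.61, 32.0 and 75.8 CPM. All 4 venule libraries were above all libraries of every other group, while the other groups overlapped each other. The venule mean of 259 ± 57.9 CPM (SD, n = 4) was 2.89 times that of whole kidney, but no comparison of Plvap passed in the fit across all genes. Its log2 difference was 1.53 between venules and whole kidney (SE 0.74, edgeR FDR 0.515), -1.98 between peritubular capillaries and venules (SE 0.85, FDR 0.352), -1.69 between glomeruli and venules (SE 0.84, FDR 0.447) and -2.36 between arterioles and venules (SE 0.86, FDR 0.103). The last passed with edgeR's newer form (FDR 0.023) and when whole kidney shared the fit (FDR 0.0444). With only the 8 libraries of venules and whole kidney fitted, 4 genes (Plvap, Ehd3, Emcn and Ly6c1) were called higher in venules, Plvap with an FDR of 0.0055, in a fit that called 2.45% of all genes higher there.

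Car4 was high in the peritubular capillaries, with 424, 509, 419.5 and 888 CPM in libraries 93, 96, 98 and 100. It was low in the glomeruli, with 48.1, 26.4, 35.8 and 41.0 CPM. The glomerular mean was lower by a factor of 14.8 (log2 -3.89, SE 0.80, edgeR FDR 0.00152), and the groups did not overlap. The arterioles gave 5.76, 4.35, 54.5 and 138 CPM, below the peritubular capillaries in all 4 libraries (log2 -3.46, SE 0.78, FDR 0.00277). Both compartments were also below whole kidney, which gave 243, 226, 209 and 231 CPM (arterioles -2.16, SE 0.68, FDR 0.0349, and glomeruli -2.58, SE 0.69, FDR 0.0267). The call in arterioles was lost without any 1 of the whole kidney libraries or without arteriole library 93, 96 or 98 (FDR up to 0.0748). Without arteriole library 100 the difference of arterioles grew to -3.40 from whole kidney and to -4.70 from peritubular capillaries. The call in glomeruli was lost without any 1 library of whole kidney or glomeruli (FDR up to 0.0824). The peritubular capillaries exceeded whole kidney in all 4 libraries, by a factor of 2.47 between means, but not past the threshold (log2 1.30, SE 0.66, edgeR FDR 0.421). The venules gave 117, 309, 289 and 109 CPM, a wide range that overlapped whole kidney. Without arteriole library 100, the lower level in arterioles than in venules (-2.02, SE 0.74, FDR 0.102) passed at -3.26 with an FDR of 0.0102.

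The other carbonic anhydrases numbered 15, of which 12 were tested against whole kidney. In arterioles 3 were lower, namely Car2, Car9 and Car5a, and none was higher (5.5% of all genes were lower and 5.78% higher), with a median log2 difference of -2.40 beside 0.22 over all genes. Car2, the soluble enzyme of red cells and collecting duct, was at 27.2 CPM in arterioles against 160 CPM in whole kidney (log2 -2.56, SE 0.75, edgeR FDR 0.0239). Between compartments, where 10 were tested, edgeR called none in any of the 6 comparisons, which called from 0.0821% to 6.22% of all genes in a direction.

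Cd36, the fatty acid transporter, gave the widest ratio between group means of the 9 genes. In the peritubular capillaries it stood at 250.2, 268, 315 and 385 CPM in libraries 93, 96, 98 and 100. In the arterioles it stood at 3.84, 2.90, 2.47 and 5.35 CPM, from 18, 18, 22 and 30 counts. The means differed by a factor of 83.6 (log2 -6.38, SE 0.96, edgeR FDR 1.12e-05) with no overlap. The glomeruli were also low, at 19.1, 6.41, 21.6 and 13.0 CPM, and lay below the peritubular capillaries by a factor of 20.2 (log2 -4.34, SE 0.87, FDR 0.00116). Whole kidney gave 184, 126, 159.6 and 182 CPM, above the arterioles (arterioles minus whole kidney -5.48, SE 0.73, FDR 1.42e-06) and the glomeruli (-3.44, SE 0.66, FDR 0.0011). The venules lay between, at 39.1, 89.7, 70.4 and 134 CPM, and exceeded the arterioles (arterioles minus venules -4.52, SE 0.88, FDR 0.00113). The peritubular capillaries stood above whole kidney in every library, but by 0.90 on the log2 scale (SE 0.61, edgeR FDR 0.613).

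Car4 and Cd36 are made by proximal tubule cells as well as by capillaries. Proximal tubule markers summed to 72524, 82328, 116987 and 135207 CPM in peritubular capillary libraries 93, 96, 98 and 100, in which Cd36 was at 250.2, 268, 315 and 385 CPM and Car4 at 424, 509, 419.5 and 888 CPM. Cd36 was thus in the order of the tubule markers there, while Car4 was lowest in library 98, which had the second highest tubule sum. In the venules they summed to 34963, 31514, 27963 and 33541 CPM, highest in library 93, which had the least Cd36 of its group, and in the glomeruli to between 6663 and 8897 CPM. Their part in the levels of Car4 and Cd36 was not tested.

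**Figure D2:**
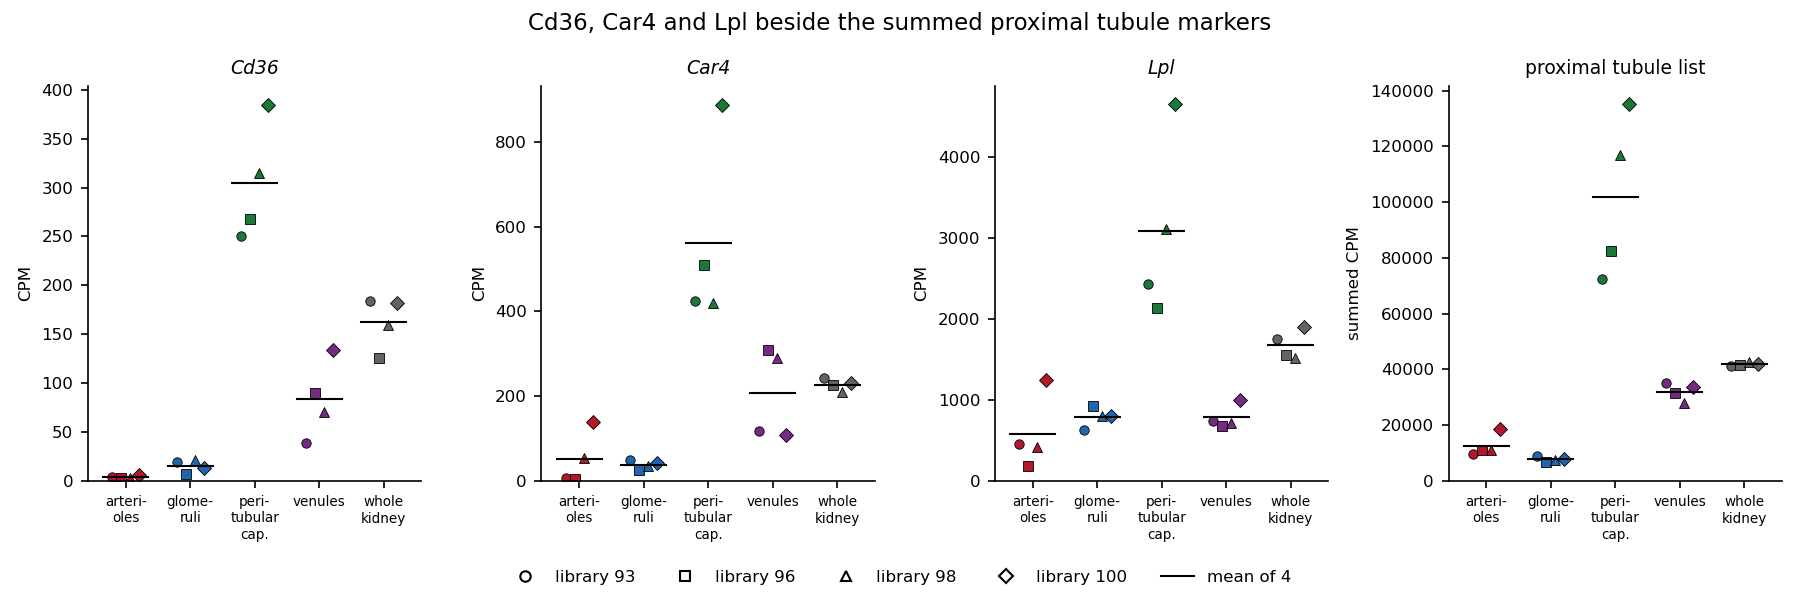
Levels of Cd36, Car4 and Lpl in CPM and the summed CPM of 14 proximal tubule markers (linear axes from 0) in the 5 groups, with a point for each library and a bar at the mean of 4. All 4 quantities are highest in the peritubular capillaries, where the tubule markers reach 72524 to 135207 CPM. Cd36, Car4 and the tubule markers have their lowest means in the arterioles and glomeruli. The mean of Lpl is 575 CPM in the arterioles, 788 CPM in the glomeruli and 786 CPM in the venules.

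Gpihbp1, which carries lipoprotein lipase to the capillary lumen, varied widely between libraries of the same group. The peritubular capillaries gave 18.8, 3.10, 70.7 and 127 CPM and the glomeruli 34.7, 64.3, 50.7 and 25.0 CPM. The venules gave 3.47, 0.608, 11.3 and 0.670 CPM, from 31, 5, 61 and 5 counts. In the arterioles library 93 stood at 87.6 CPM from 411 counts, and the other 3 held 2, 4 and 3 counts (0.322, 0.450 and 0.535 CPM). Whole kidney was even, at 11.2, 13.9, 16.5 and 14.5 CPM. The glomeruli were above whole kidney in all 4 libraries and the venules were below it in 3, yet no comparison passed, and the largest log2 difference was 3.76 between peritubular capillaries and venules (SE 1.75, edgeR FDR 0.394). Without arteriole library 93, the arterioles were below whole kidney (log2 -5.01, FDR 0.0472) and below the peritubular capillaries (-6.88, FDR 0.029).

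Lpl, the enzyme that GPIHBP1 binds, spread less within these groups. It stood at 2432, 2140.2, 3114 and 4660.3 CPM in peritubular capillary libraries 93, 96, 98 and 100 and at 744, 679, 718 and 1004 CPM in the venules, where the log2 difference was 1.97 (SE 0.41, edgeR FDR 0.0119). In a list of 24 genes of fatty acid uptake and handling, 20 were tested between compartments. Lpl and the acyl-CoA synthetase gene Slc27a2 were the 2 called higher in peritubular capillaries than in venules, the 2 called lower in arterioles than in peritubular capillaries, and the 2 called lower in glomeruli than in peritubular capillaries. Over all genes, 0.0821%, 4.98% and 2.29% were called in those directions. The list's medians were 1.08, -1.04 and -1.69 in those comparisons, beside 0.04, 0.20 and 0.06 over all genes. Slc27a2, which proximal tubules express, had means of 1159 CPM in peritubular capillaries, 694 CPM in whole kidney, 242 CPM in venules, 126 CPM in arterioles and 68.4 CPM in glomeruli.

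Fabp4, which binds fatty acids in capillary endothelium and in fat cells, had its highest mean in whole kidney, but from a split group. Whole kidney libraries 98 and 100 stood at 332 and 308 CPM, and libraries 93 and 96 at 61.2 and 43.3 CPM. The arterioles gave 13.9, 89.2, 67.4 and 115 CPM and the glomeruli 22.5, 140.1, 42.3 and 29.2 CPM. The peritubular capillaries gave 59.5, 52.5, 22.9 and 84.5 CPM and the venules 18.6, 33.5, 57.8 and 1.74 CPM. All compartments overlapped whole kidney and each other, and none of the 10 comparisons passed. The largest log2 difference was -2.74 between venules and whole kidney (SE 0.93, edgeR FDR 0.293). From the adipocyte list of 8 genes, Cfd, Adipoq and Plin1 were picked after their values were seen. In whole kidney they too were higher in libraries 98 and 100 than in 93 and 96. Cfd, or adipsin, stood at 25.4, 0.806, 112 and 209.9 CPM in whole kidney libraries 93, 96, 98 and 100, Adipoq at 7.29, 0.230, 25.7 and 32.2 CPM and Plin1 at 2.84, 0, 34.5 and 37.9 CPM. The whole adipocyte list of 8 genes, all of them detected in whole kidney, summed to 158, 105, 368 and 522 CPM in those libraries, and to between 28.0 and 526 CPM in the microdissected ones, where Lep had no count in glomeruli, peritubular capillaries and venules and Retn none in arterioles, glomeruli and peritubular capillaries. In the 16 microdissected libraries Plin1 was at or near 0, Cfd was above 1 CPM in arteriole library 100 alone (24.6 CPM), and Adipoq was above 1 CPM in peritubular capillary library 98 alone (38.4 CPM), whose Fabp4 was the lowest of its group. In the venules, where Fabp4 had its lowest mean, the list had a median sum of 205 CPM, nearly all from its other genes. The part of fat cells in these values was not tested.

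**Figure D3:**
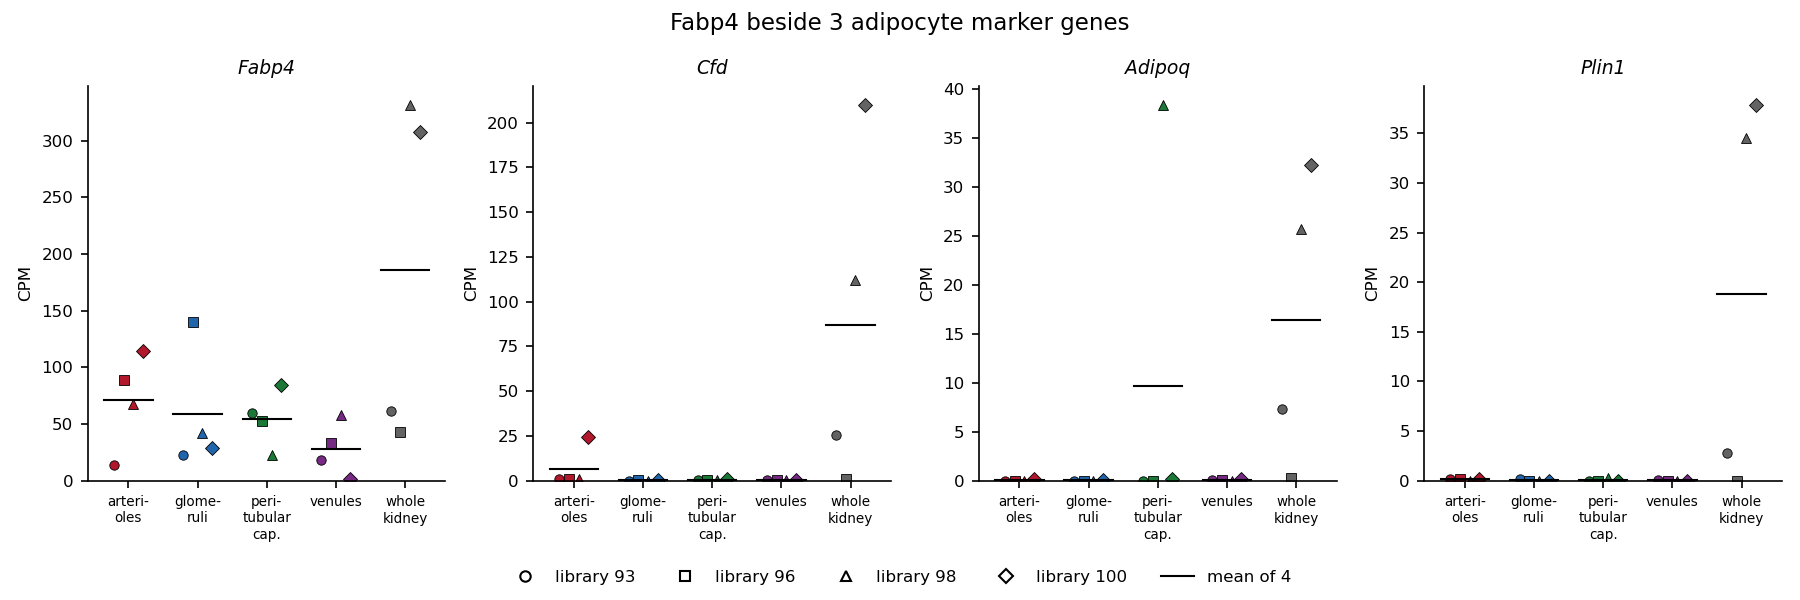
Levels of Fabp4 and of the adipocyte genes Cfd, Adipoq and Plin1 in CPM (linear axes from 0) in the 5 groups, with a point for each library and a bar at the mean of 4. Whole kidney libraries 98 and 100 are the highest of their group for all 4 genes, with Fabp4 at 332 and 308 CPM. The adipocyte genes shown were picked from a list of 8 after their values were seen.

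Ly6a, the gene of Sca-1, was present at a substantial level in every library. The peritubular capillaries gave 1411, 1509, 2883 and 2835 CPM and the arterioles 1154, 2535, 1553 and 1407 CPM. The venules gave 867, 961, 755 and 1122 CPM, whole kidney 818, 841, 786 and 814 CPM and the glomeruli 540.1, 533, 560.1 and 343 CPM. The glomeruli were below every library of the other groups, while the first 2 groups overlapped (log2 of arterioles minus peritubular capillaries -0.38, SE 0.34, edgeR FDR 0.516). The glomeruli were lower than the peritubular capillaries (-2.13, SE 0.36, FDR 0.000114) and than the arterioles (arterioles minus glomeruli 1.75, SE 0.35, FDR 0.00228), the latter lost with total counts as the only scaling (1.00, FDR 0.0688). The arterioles were above whole kidney (1.03, SE 0.31, FDR 0.0271), a call lost without any 1 whole kidney library, arteriole library 96 or glomerular library 93, 96 or 98 (FDR up to 0.0997) and with total counts as the only scaling (0.39, FDR 0.33). The peritubular capillaries had the larger difference from whole kidney (1.41, SE 0.31, edgeR FDR 0.0518), which just missed the threshold and passed in DESeq2 (FDR 0.0235), in edgeR's newer form (FDR 0.0277) and in 6 of the refits that left out a library, those without any 1 arteriole library or without peritubular capillary library 93 or 96 (FDR 0.00999 to 0.0465).

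Ly6c1, its neighbor on chromosome 15, had a different order. The arterioles gave 1009, 1297, 2204 and 1407 CPM in libraries 93, 96, 98 and 100. The glomeruli gave 494, 414, 427 and 324 CPM, and the venules 218, 209, 189.9 and 324 CPM. Every arteriole library exceeded every other library, and the mean of 1479 ± 512 CPM (SD, n = 4) was 12.7 times that of whole kidney (log2 3.67, SE 0.44, edgeR FDR 1.28e-07). The peritubular capillaries gave 107, 57.8, 216 and 109 CPM and whole kidney 126, 135, 106 and 97.2 CPM, groups that overlapped (log2 0.07, SE 0.39, edgeR FDR 0.981). The arterioles were above the peritubular capillaries (3.60, SE 0.48, FDR 1.13e-06), the venules (2.65, SE 0.46, FDR 0.000259) and the glomeruli (1.83, SE 0.44, FDR 0.0155). The last call was lost without arteriole library 98 or glomerular library 96, 98 or 100 (FDR up to 0.0826) and with total counts as the only scaling (1.22, FDR 0.116). The glomeruli were above whole kidney (1.84, SE 0.40, FDR 0.00535) and the peritubular capillaries (1.77, SE 0.44, FDR 0.0119), the latter lost without peritubular capillary library 96 (FDR 0.0668). Against the venules the glomerular difference was 0.81 (SE 0.43, edgeR FDR 0.516). In the peritubular capillaries Ly6a thus had its highest mean, while Ly6c1 lay within the range of whole kidney in libraries 93 and 100, below it in library 96 and above it in library 98.

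Reads of Ly6c1 can be confused with those of Ly6c2 (chromosome 15, 75108158 to 75111970), a near copy that marks monocytes. Of 401 windows of 100 bases in the last 500 bases of the Ly6c1 transcript, 25 (6.23%) occurred unchanged anywhere in a Ly6c2 transcript. Ly6a and Gpihbp1 shared none with either gene. Ly6c2 was at or below 2.36 CPM in 19 libraries and at 61.5 CPM (332 counts) in venule library 98, whose Ly6c1 was the lowest of its group. With both genes summed, no call of Ly6c1 changed. In a list of 25 further Ly6 family genes present in the table, 11 were tested against whole kidney. In arterioles 1 was higher and 1 lower (5.78% and 5.5% of all genes), and the higher was Ly6e (783 against 258 CPM, log2 1.60, SE 0.41, edgeR FDR 0.00945), while the lower, Lypd2, had no count in any arteriole library. Cd59a, which protects cells from complement, was higher in glomeruli than in venules (445 against 50.1 CPM, log2 3.15, SE 0.82, edgeR FDR 0.0429), as 0.493% of all genes were.

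**Figure D4:**
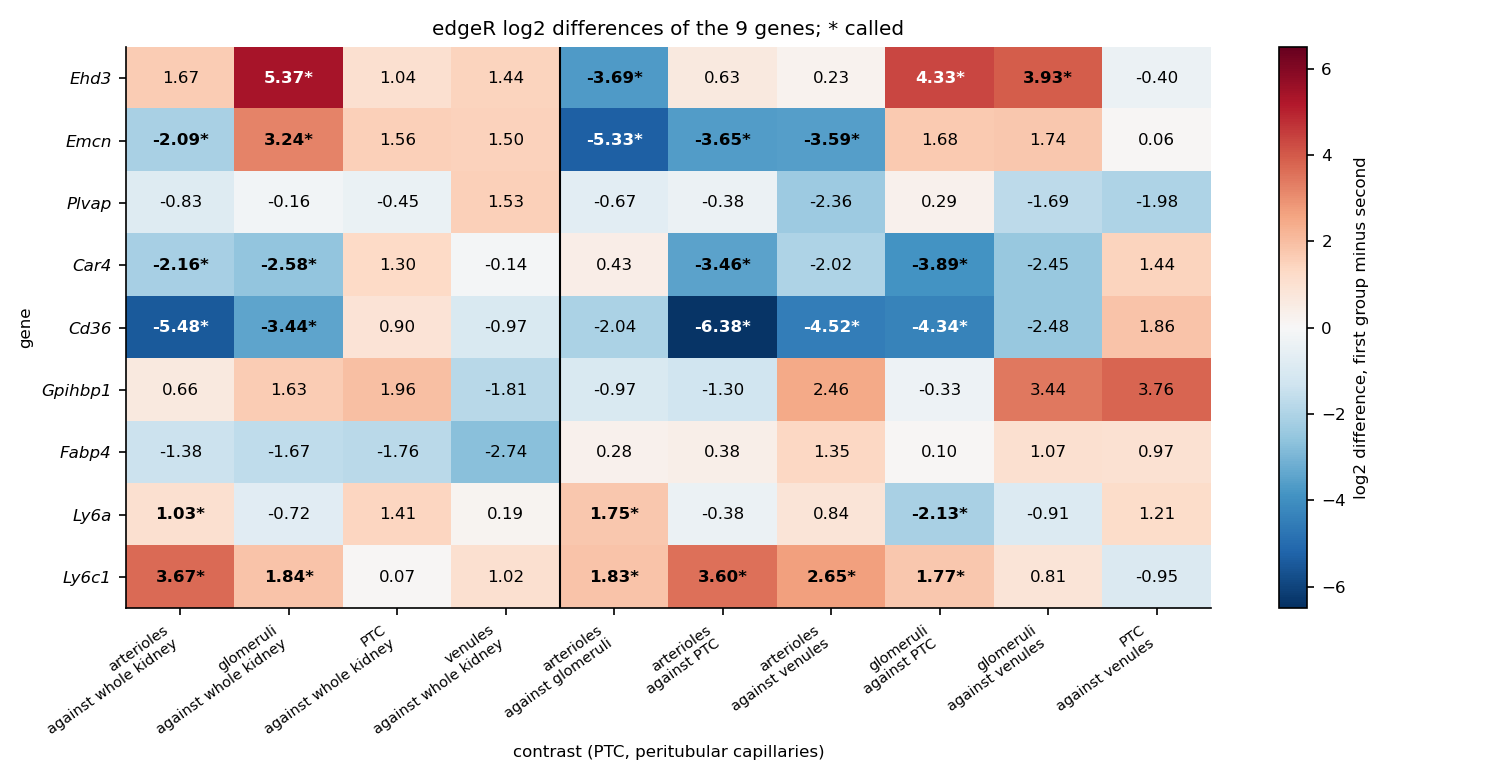
Log2 differences of the 9 genes (rows) in 10 comparisons (columns, first group minus second), with red for higher and blue for lower in the first group. Bold values with an asterisk passed (FDR under 0.05, and a log2 difference beyond 1 in the 4 comparisons with whole kidney), and 27 of the 90 values did.

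Counted by comparison, the arterioles differed from whole kidney in 2 genes that were higher (Ly6a and Ly6c1), among 5.78% of all 13813 genes tested, and 3 that were lower (Emcn, Car4 and Cd36), among 5.5%. The glomeruli had 3 higher (Ehd3, Emcn and Ly6c1), among 1.59%, and 2 lower (Car4 and Cd36), among 1.47%. Neither the peritubular capillaries nor the venules had a called gene in this edgeR fit, in comparisons that called 0.0869% higher and 0.00724% lower, and 0.203% higher and 0.0217% lower. At an unadjusted p under 0.05 there were 2 and 5 of the 9, beside 12.4% and 9.36% of all genes. DESeq2 called 1 (Ly6a, higher in peritubular capillaries) and 0, beside 3.38% and 2.16% of all genes in either direction. Some other forms of the edgeR fit called Ly6a in peritubular capillaries too, and independent filtering called Ehd3 higher in venules (FDR 0.0259).

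Among the compartments, arterioles and glomeruli differed in 2 genes higher in arterioles (Ly6a and Ly6c1, 1.33% of 12179 genes) and 2 lower (Ehd3 and Emcn, 0.862%). Arterioles against peritubular capillaries gave 1 higher (Ly6c1, 6.22% of all genes) and 3 lower (Emcn, Car4 and Cd36, 4.98%). Arterioles against venules gave 1 higher (Ly6c1, 2.5%) and 2 lower (Emcn and Cd36, 1.87%). Each arteriolar comparison thus had Ly6c1 on the higher side and Emcn on the lower side. Glomeruli against peritubular capillaries gave 2 higher (Ehd3 and Ly6c1, 2.2%) and 3 lower (Car4, Ly6a and Cd36, 2.29%). Glomeruli against venules gave 1 higher (Ehd3, 0.493%) and 0 lower (0.731%), with 5 of the 9 at an unadjusted p under 0.05 in edgeR (11.5% of all genes) and 1 (Cd36) called lower by DESeq2 (6.3% in either direction). Peritubular capillaries and venules differed in none (0.0821% of genes higher and 0.328% lower), with 5 at an unadjusted p under 0.05 in edgeR (11.2% of all genes) and 1 (Cd36, higher) called by DESeq2 (5.97% in either direction). The comparisons share libraries, so their counts are not independent of each other.

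Because the groups differed so much in endothelial content, the genes were also set against endothelial transcripts themselves. The mixture of the 21 pan-endothelial genes was not the same in every group. Of every 100 of their counts, Pecam1 had a mean of 22.7 in the arterioles and 5.97 in the peritubular capillaries. Kdr, also among them, had its highest mean in the glomeruli. Expressed per 100 counts of the 21 pan-endothelial genes, Ehd3 stood at 54.2 ± 8.65 in the glomeruli (SD, n = 4) and at 10.7 ± 3.50 in the peritubular capillaries, 10.1 ± 4.35 in the venules, 9.13 ± 1.17 in whole kidney and 2.58 ± 2.97 in the arterioles. On this scale Emcn stood at 16.5 ± 2.43 in the glomeruli, 13.4 ± 2.22 in the venules, 12.1 ± 1.73 in whole kidney and 0.291 ± 0.371 in the arterioles. Its mean of 17.0 ± 16.6 in the peritubular capillaries came from library 100 at 41.7, while libraries 93, 96 and 98 stood at 7.03, 7.43 and 11.7, below every glomerular library (13.9 to 19.4). Plvap stood at 18.1 ± 7.49 in the venules, 15.3 ± 2.43 in whole kidney, 6.64 ± 3.91 in the peritubular capillaries, 1.97 ± 0.308 in the glomeruli and 0.820 ± 0.655 in the arterioles. The venules and whole kidney thus overlapped for Plvap (lowest venule library below the highest of whole kidney, 18.7). All glomerular, arteriole and peritubular capillary libraries lay below both. Per count of Pecam1, a single endothelial gene, Plvap showed the same order, with 2.49 ± 1.61 in the venules, 1.40 ± 0.203 in whole kidney, 1.13 ± 0.724 in the peritubular capillaries, 0.233 ± 0.0291 in the glomeruli and 0.0528 ± 0.0590 in the arterioles.

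**Figure D5:**
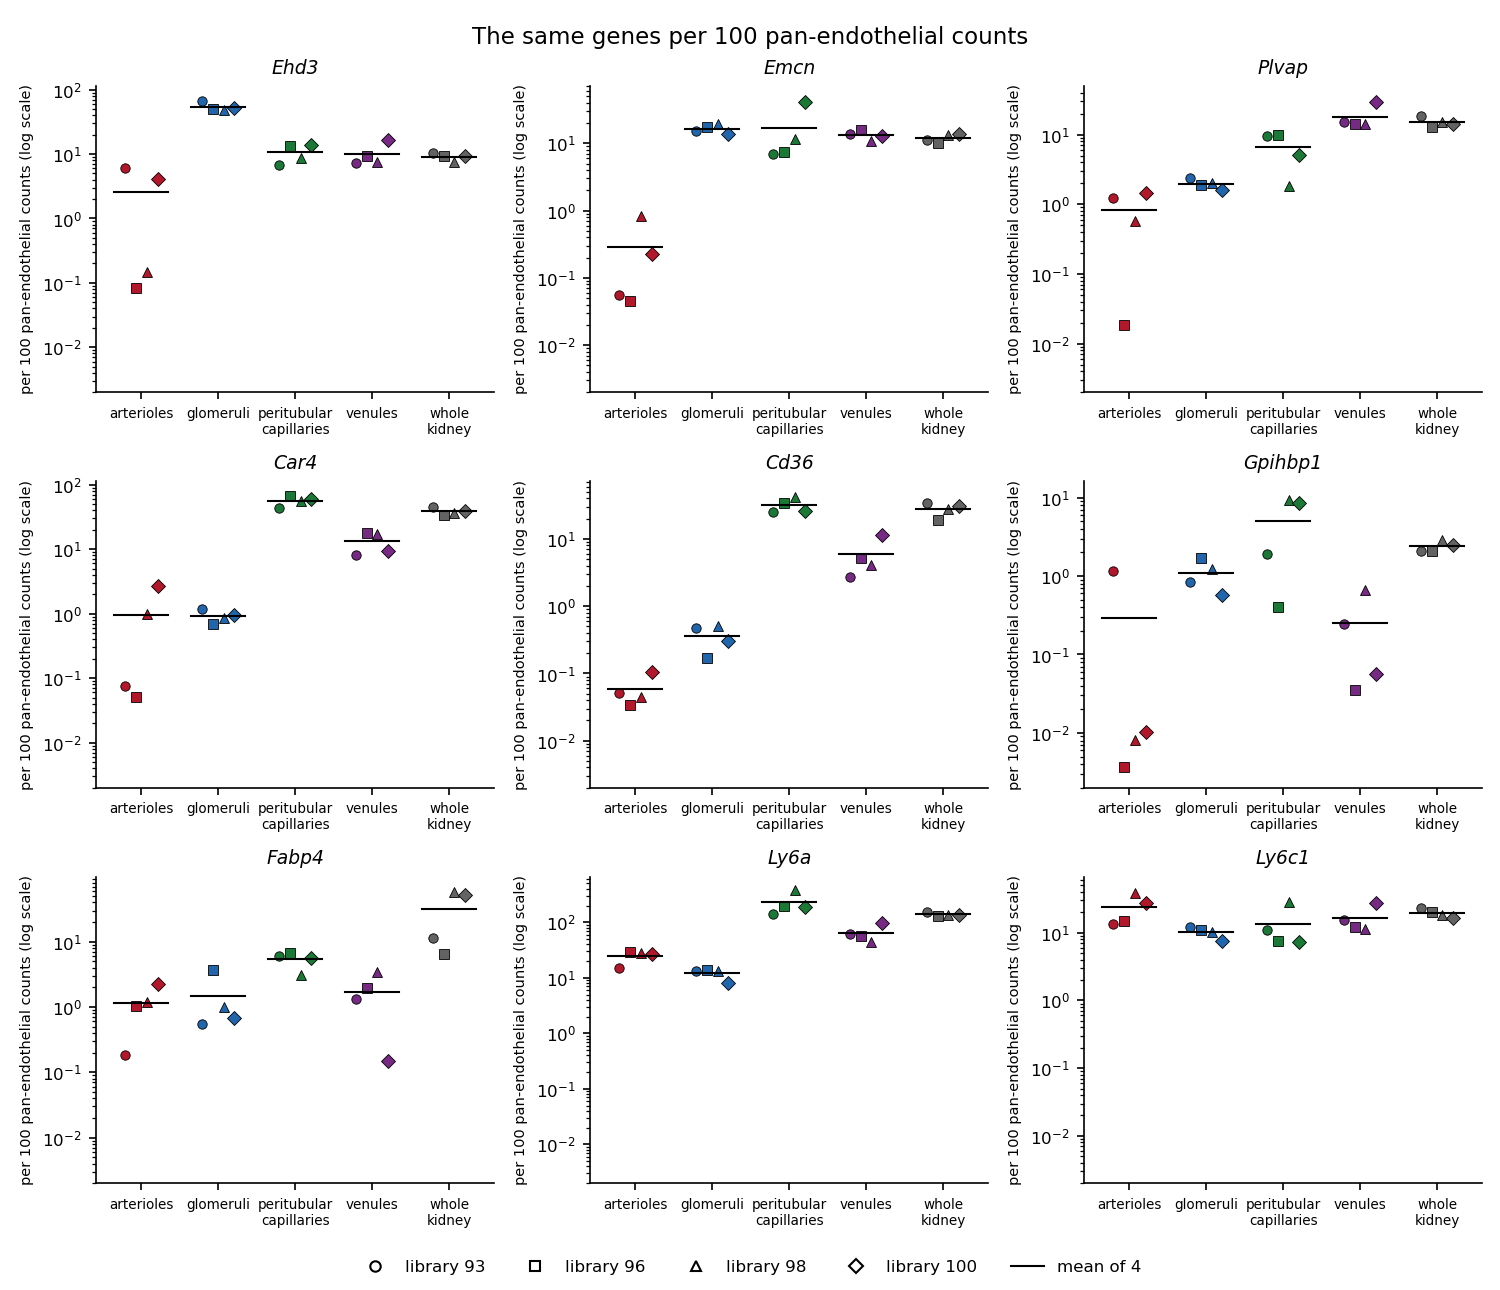
Counts of the 9 genes per 100 counts of the 21 pan-endothelial genes (vertical axis, log scale) in the 5 groups, with a point for each library and a bar at the mean of 4. Ehd3 remains highest in the glomeruli (48.2 to 67.0), Emcn in the peritubular capillaries runs from 7.03 to 41.7 with a single high library, and Ly6c1 lies between 7.24 and 39.3 in all 20 libraries.

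On the endothelial scale Car4 stood at 56.1 ± 9.66 in the peritubular capillaries, 38.8 ± 4.80 in whole kidney, 13.1 ± 5.10 in the venules, 0.947 ± 1.24 in the arterioles and 0.919 ± 0.199 in the glomeruli. Cd36 stood at 31.9 ± 8.06, 28.0 ± 6.48, 5.89 ± 3.82, 0.0580 ± 0.0315 and 0.363 ± 0.159 in the same order. Peritubular capillaries and whole kidney overlapped for both genes. Ly6a ran from 228 ± 108 in the peritubular capillaries and 139 ± 10.2 in whole kidney down to 24.9 ± 6.53 in the arterioles and 12.1 ± 2.85 in the glomeruli. For Ly6c1 the group means lay between 10.2 and 23.7, with the arterioles (13.3 to 39.3) overlapping whole kidney (16.5 to 23.5). This scale divides by endothelial counts but does not take out counts from tubule cells, whose proximal markers were highest in the peritubular capillaries. The part of tubule cells in these ratios was not tested.

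Tested on this scale in edgeR, 38 of the 90 comparisons passed. The median log2 difference of all genes from whole kidney then moved to -3.22 for the arterioles, -2.54 for the glomeruli, -0.46 for the peritubular capillaries and -1.14 for the venules, from 0.22, 0.25, 0.18 and 0.19 on the scale of all counts, and each difference on this scale is read against that shift. Against whole kidney the arterioles had 0 genes higher and 7 lower (0.297% and 52.4% of all genes), the glomeruli 1 higher and 5 lower (0.0796% and 28.7%), the peritubular capillaries 0 either way (0.00724% and 0.0724%) and the venules 0 higher and 1 lower (0.0362% and 0.362%). The gene higher in glomeruli was Ehd3, at a log2 difference of 2.57 (SE 0.75, edgeR FDR 0.0103), which was also higher there than in peritubular capillaries (2.34, SE 0.76, FDR 0.0271) and venules (2.42, SE 0.76, FDR 0.0426). Emcn, by contrast, was at 0.45 between glomeruli and whole kidney (SE 0.68, edgeR FDR 0.595) and at -0.04 between glomeruli and peritubular capillaries (SE 0.71, FDR 0.968). The latter value rests on peritubular capillary library 100, which stood above all glomerular libraries on this scale while the other 3 stood below them. Emcn in arterioles stayed below the other compartments beyond the shift, with log2 differences of -5.82 from glomeruli, -5.86 from peritubular capillaries and -5.52 from venules beside medians of -0.40, -2.58 and -1.87 over all genes (edgeR FDR 8.72e-05, 4.1e-06 and 2.19e-05).

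Plvap had log2 differences on this scale of -4.46 between arterioles and venules (SE 0.93, edgeR FDR 0.000774), -3.02 between arterioles and peritubular capillaries (SE 0.87, FDR 0.00792) and -3.20 between glomeruli and venules (SE 0.87, FDR 0.0172). The medians of all genes in these comparisons were -1.87, -2.58 and -1.43, so the second value lay close to the shift of all genes. Between glomeruli and peritubular capillaries it was at -1.75 (SE 0.83, edgeR FDR 0.132), and between peritubular capillaries and venules at -1.45 (SE 0.82, FDR 0.467). Among the compartments this scale gave 0 genes higher and 3 lower in arterioles against glomeruli (0.345% and 1.83% of all genes), 0 and 6 in arterioles against peritubular capillaries (1.45% and 34.8%), 0 and 5 in arterioles against venules (0.542% and 21.7%), 1 and 3 in glomeruli against peritubular capillaries (0.558% and 17.8%), 1 and 4 in glomeruli against venules (0.205% and 7.58%) and 1 and 0 in peritubular capillaries against venules (0.32% and 0.0903%). The last was Ly6a, at 1.83 (SE 0.39, FDR 0.019). Ly6c1 was called in none of the 10 comparisons on this scale, and its log2 difference of arterioles from whole kidney was 0.26 (SE 0.52, edgeR FDR 0.673). Ly6a in arterioles turned from higher than whole kidney on the scale of all counts to lower on this one (-2.48, SE 0.36, FDR 1.74e-06), by less than the median of all genes.

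Beside these lists, the genes whose log2(CPM + 1) ran most like each member's over the 16 microdissected libraries were looked up, as a description that rests mainly on the differences between groups. Ehd3 ran most like F11r (Pearson's r = 0.87) and Nrp1 (0.87), Emcn like Ap1b1 (0.90), and Plvap like Spcs1 (0.91). Car4 ran most like Cmtm6 (0.94), Amacr (0.94) and Aqp11 (0.94) and Cd36 like Agps (0.95), Slc6a20b (0.95) and Slc51a (0.95). Ly6c1 ran most like Vim (0.95), Myl9 (0.93) and Epas1 (0.93) and Ly6a like Lamp1 (0.89). For Gpihbp1 and Fabp4, whose libraries were scattered, the nearest genes were Hars (0.83) and Ccnl2 (0.84).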

How the data were processed

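Messenger RNA of 20 libraries (16 microdissected, 4 of whole kidney) was sequenced from the 3′ end with QuantSeq FWD. The authors trimmed the reads, aligned them with STAR and counted them per Ensembl gene with htseq-count on GRCm38.p6, and deposited raw counts. The submitters' processing notes name STAR 2.7, HTSeq 0.13, SAMtools 1.9, FastQC 0.11.8, MultiQC 1.7 and featureCounts, and the builds GRCm38.p6 and GRCm39, with no role. No source used here states the strand setting or whether molecular identifiers were used. Of 168 value columns, 20 were used, whose header lines give their section and the treatment control. The other 148 match no sample here and were not used, and 3 lines naming no gene were dropped. A column was matched to its group by the section in its header lines, and the number in the column name (93, 96, 98 or 100) stands for the library.

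From these counts, edgeR 4.0.16 (R 4.3.3) fitted TMM-scaled quasi-likelihood models after filterByExpr, and p-values were adjusted by Benjamini-Hochberg over all genes tested. All 20 libraries (13813 genes) served the comparisons with whole kidney, called at FDR under 0.05 and a log2 difference beyond 1. The 16 microdissected libraries (12179 genes) served the 6 comparisons among compartments, called at FDR under 0.05. The SE is the log2 difference divided by the square root of F. CPM used the TMM-scaled total of the genes kept. Library totals of 4639090 to 12283098 counts set the precision, and values from few counts are given with them. The scripts were tested on simulated data. Alternatives were another scaling (RLE, total counts, pan-endothelial counts), no filter, independent filtering, edgeR's newer form, DESeq2 1.42.0, other sets of libraries, a replicate block and leaving out each library. Named genes were the 9 members in every comparison, at most 4 called genes with the smallest p per list and comparison, the 3 genes most like each member, and close paralogs. Kdr, Cfd, Adipoq, Plin1, Slc27a2 and Lpl values beyond those were chosen after their values were seen. The members and lists were chosen with earlier results of these data known. Promoter sequences came from a table made from RefSeq (GRCm38.p6), in which 5 of the 9 genes were matched, and positions from GENCODE.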

Additional observations from a re-analysis of the deposited data

Results flagged for a closer look

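Within each group of 4 libraries, a library was looked at again when its gap to the nearest other library was a larger share of the group's range than Dixon's 95% critical value for 4 samples allows. This held in 4 of 45 groups of values, where chance gives about 1 in 20. Emcn in peritubular capillary library 100 stood at 626.3 CPM with a gap of 0.947 of the range, above the other 3 libraries. Ly6a in glomerular library 100 stood at 343.2 CPM (gap 0.875), below the others. Fabp4 in glomerular library 96 stood at 140.1 CPM (gap 0.832), above the others. Gpihbp1 in arteriole library 93 stood at 87.61 CPM (gap 0.998), where the other 3 libraries held 2, 4 and 3 counts.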

How the results depend on the processing

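Outside the refits that left out a library, 194 of 237 recomputed counts of called members kept to within 1.5 times the main count. RLE size factors and the sum of Ly6c1 and Ly6c2 changed no call. With total counts as the only scaling, 1 gene was higher in arterioles than in whole kidney and 0 than in glomeruli, and the median log2 difference of all genes moved from 0.22 to -0.32 and from 0.27 to -0.41. In all, 1757 and 285 genes were called there, beside 1558 and 267 in the main fits. On the pan-endothelial scale the arterioles had 0 genes higher and 7 lower than whole kidney, 0 higher than glomeruli, 0 higher and 6 lower than peritubular capillaries and 0 higher and 5 lower than venules. The glomeruli had 1 higher and 5 lower than whole kidney, 1 higher than peritubular capillaries and 4 lower than venules, the venules had 1 lower than whole kidney, and the peritubular capillaries 1 higher than venules. Directions that reversed on that scale were those of Ehd3 (-1.82), Ly6a (-2.48) in arterioles and Ly6c1 in glomeruli (-0.96) and venules (-0.25) against whole kidney, Ly6a in arterioles against venules (-1.37), and Emcn (-0.041) and Ly6c1 (-0.42) in glomeruli against peritubular capillaries. That scale divides by the endothelial content and moves the median of all genes to -3.22 in arterioles and -2.54 in glomeruli against whole kidney, and Ehd3, Ly6a and Ly6c1 there lay above those medians.

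The number of all genes called also changed between fits, so a changed count of members can reflect that. For peritubular capillaries against whole kidney, 1 gene (Ly6a) was called higher without a filter on low counts, with independent filtering, with edgeR's newer form, with DESeq2 and with the replicate block, and 2 in the fit of only the 8 libraries compared. These fits called 36, 85, 28, 456, 23 and 1380 genes in all, beside 13 in the main fit. For venules against whole kidney, independent filtering called 1 higher and the fit of 8 libraries 4, with 80 and 1082 genes called in all, beside 31. For glomeruli against venules, the number lower was 1 without a filter, with edgeR's newer form and with DESeq2, 2 with all 20 libraries in the fit and 3 with independent filtering or the 8 libraries, which also called 2 higher. In this order the fits called 199, 360, 790, 298, 350 and 614 genes in all, beside 149. For peritubular capillaries against venules, 1 was higher with independent filtering, DESeq2, all 20 libraries or the 8 libraries. Here 163, 754, 99 and 116 genes were called in all, beside 50. For arterioles against venules, 4 were lower with edgeR's newer form or all 20 libraries and 0 with the 8 libraries. Those fits called 1194, 1430 and 258 genes in all, beside 533. DESeq2 called 2 lower in arterioles than in glomeruli (2019 genes called in all, beside 267) and gave Emcn no adjusted p in any comparison. The 8 libraries of arterioles and whole kidney called 1 lower, with 3549 genes called in all, beside 1558. Without whole kidney libraries 98 and 100 together, a choice made after seeing the data, 1 gene was higher and 1 lower in arterioles and likewise in glomeruli, in a fit with fewer samples. That fit called 344 genes in arterioles and 94 in glomeruli in all, beside 1558 and 422. The cause of the other changes was not tested.

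Same-numbered libraries did not deviate together (correlations -0.0456 to 0.0626, below 0.1). Low correlations cannot show that these libraries came from different mice. The authors collected all compartments from each mouse, but whether the numbers pair the libraries by mouse stays unknown. The replicate block otherwise added the call of Car4 in arterioles against venules (-2.65, FDR 0.0498 in edgeR) and lost none of the 27.

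Leaving out each library in turn gave, for arterioles against whole kidney, 1 to 3 genes higher and 1 to 3 lower. For glomeruli it gave 3 higher and 1 to 2 lower, for peritubular capillaries 0 to 1 higher and 0 lower, and for venules 0 either way. It gave 1 to 2 higher and 2 lower in arterioles against glomeruli, 1 higher and 3 to 4 lower against peritubular capillaries, and 1 higher and 2 to 3 lower against venules. Glomeruli had 1 to 3 higher and 3 lower than peritubular capillaries and 1 higher and 0 to 1 lower than venules (Car4 at -2.47, FDR 0.0273 without arteriole library 96). Peritubular capillaries and venules gave 0 either way, and 6 to 7 genes differed among the compartments. The shares of all genes called in these refits are not given here, so the ranges cannot be set against them. The fewest counts lay behind Gpihbp1, with 2, 4 and 3 in 3 of the arteriole libraries and 5 in each of 2 venule libraries.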
